A study of Mus musculus with 9 samples.

Results

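Nsd2 silencing was examined in cultured NPK mouse prostate cancer cells by comparing 3 RNA-seq libraries of cells given an shRNA against Nsd2 (shNsd2) with 3 libraries of control cells. The 6 were chosen by their sample titles out of 9 libraries, and MCTP, a compound given to NPK cells, distinguishes the remaining 3. All libraries were made from polyadenylated RNA. Each gene has one deposited log2 value per library in place of a read count, which leaves sequencing depth unknown.

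All 9 libraries come from the NPK line, derived from metastases in the lungs of NPK mice. Those mice carry an inducible Cre, active in prostate epithelium, that switches on engineered cancer alleles and the R26R-YFP reporter. Both the control and the shNsd2 cells share this background. For silencing, the methods describe the lentiviral pLKO.1 vector with several shRNA clones per gene and a Luciferase shRNA as the control. The labels give neither the clone that each shNsd2 library received nor whether the control libraries carried the Luciferase shRNA. In a further label, the shNsd2 libraries are called Nsd2, Nsd3 and Nsd4, a name each. The MCTP titles hold the numbers 39, 40 and 41, whose meaning the labels do not give. The paper treats human DU145 cells with MCTP-39, which it calls a putative NSD2 inhibitor. Whether 40 and 41 are other compounds is not given, so the MCTP libraries may not share the same treatment. Nothing in the labels says that the replicates were separate cultures, so the p-values measure only the spread between these libraries, which may be technical.

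Nsd2 is a histone methyltransferase that places the dimethyl mark on lysine 36 of histone H3, a mark spread widely over active genes and the regions between genes. It can limit the spread of the repressive lysine 27 mark set by the Polycomb complex PRC2, and high NSD2 levels are known from multiple myeloma and from advanced prostate cancer.

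The values of lineage markers were examined first. The luminal keratins Krt8 and Krt18 were among the high values in control cells, at 16.28 ± 0.074 and 15.38 ± 0.12 (mean log2 value ± SD, n = 3 libraries). The epithelial adhesion gene Cdh1 was at 11.77 ± 0.070. Epcam, another epithelial adhesion gene, was at 3.55 in control and 3.73 in shNsd2 cells, under the limit of 3.78 used to call a gene measurable. In this bulk RNA, fewer cells of a type and less RNA per cell cannot be told apart. The basal keratin Krt15 was at 12.55, whereas the basal transcription factor Trp63 was at only 4.87. Of the markers of other cells with values, the fibroblast gene Dcn was at 2.33, the endothelial gene Cdh5 at 3.50 and the airway gene Foxj1 at 2.66 in control cells, all under that limit. Other such markers lay above it. The collagen gene Col1a1 was at 8.20 in control and 7.91 in shNsd2 cells, the fibroblast receptor gene Pdgfra at 3.99 and 4.12, and the neuroendocrine genes Insm1 and Syp at 6.71 and 4.15 in control and 6.33 and 4.12 in shNsd2 cells. The macrophage marker Cd68 was at 6.53 in control and 6.76 in shNsd2 cells, and the smooth muscle actin gene Acta2 was at 5.94 and 6.08. Values were found for 6 of 8 luminal, 3 of 4 basal, 4 of 8 fibroblast and muscle, 1 of 6 immune, 1 of 4 endothelial, 2 of 5 neuroendocrine and 1 of 5 lung epithelial markers, and the others, among them Krt5 and Ptprc, were not analysed here.

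Nsd2, listed under its earlier symbol Whsc1 (ENSMUSG00000057406.8, chromosome 5), had log2 values of 12.48, 12.43 and 12.42 in the control libraries and of 11.56, 11.61 and 11.68 in the shNsd2 libraries. The groups did not overlap, and the shNsd2 mean corresponded to 0.563 of the control level on a linear scale (log2 fold change -0.83, SE 0.041, adjusted p = 2.26e-06 from limma; p = 0.1 in an exact permutation test, two-sided, which cannot give less with 3 libraries against 3). Ratios on a linear scale, here and for other genes, are calculated back from the deposited log2 values. They are inexact if the variance of those values was stabilised, which the sources used here do not give for these libraries. All 3 shNsd2 libraries were thus low for Nsd2, including those whose further label reads Nsd3 or Nsd4. Whether these labels name other genes or number shRNA clones is not given. Nsd3, a related methyltransferase, was at 11.54, 11.38 and 11.40 in control and at 11.36, 11.38 and 11.51 in shNsd2 libraries. The library whose further label reads Nsd3 was the middle one of these, and the groups overlapped. A gene under the symbol Nsd4 was not analysed here.

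Of the 11 enzymes that add or remove methyl groups at lysine 36, 3 passed the test: Nsd2 itself, the demethylase gene Kdm4c, which fell, and the demethylase gene Kdm2b, which rose. Across all 12205 genes tested, 47.8% passed the same limma test at an adjusted p under 0.05. The share called higher with shNsd2 was 23.1% and the share called lower 24.8%, with a median log2 fold change of 0.0020. All counts of gene lists given here stand against these shares. The control and shNsd2 groups did not overlap in 57.2% of all genes tested, 3428 higher and 3557 lower with shNsd2. Separation without overlap in a single gene was therefore common. Kdm4c was at 9.23, 9.10 and 9.10 in control and at 8.78, 8.81 and 8.90 in shNsd2 libraries, without overlap (log2 fold change -0.31, adjusted p = 0.00145 from limma). Kdm2b changed by 0.17. Nsd1, Nsd3, Setd2, Ash1l, Smyd2, Kdm2a, Kdm4a and Kdm4b did not pass the test, although the Kdm4a log2 fold change passed at 0.13 without control replicate 3. Of 11 PRC2 subunits and lysine 27 demethylases, 2 rose and none (0) fell in limma, with 3 higher and 1 lower at an unadjusted p under 0.05. Without control replicate 1 the rises numbered 4, and 1 fall was called without control replicate 2 or 3. After each library was corrected for transcript GC content, 5 were higher and 1 lower. The rises were those of Rbbp4, which encodes a histone-binding subunit shared by several chromatin complexes, by 0.30, and the demethylase gene Kdm6b by 0.20, whereas the catalytic subunit gene Ezh2 was not past the threshold. Among 7 DNA methylation enzymes, the demethylating dioxygenase gene Tet2 showed the largest change. It was at 9.81, 9.42 and 9.50 in control and at 8.94, 8.998 and 9.19 in shNsd2 libraries (log2 fold change -0.53, adjusted p = 0.0025 from limma).

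Most changes were small. The median absolute log2 fold change of the genes called was 0.214. Over all genes tested, the median SE was 0.0437 and the 10th and 90th percentiles of the log2 fold change were -0.26 and 0.22. Larger changes were more often falls. Of the called genes that changed by more than 0.5, 304 were lower and 87 higher with shNsd2, and beyond a change of 1 there were 25 lower and 9 higher. Replicates were close, with a median SD of 0.0520 among control and 0.0443 among shNsd2 libraries. With genes divided by level into 10 groups, the median SD among control libraries was 0.0236 in the weakest group and 0.0534 in the strongest, and how far the scale of the values reduces the fold changes of weakly expressed genes was not tested.

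Among genes expressed above the median, with level taken over both groups, the 15 largest rises were led by Itgb7. It is a leukocyte integrin subunit that pairs with integrin alpha 4 or alpha E. Its log2 values were 9.35, 9.43 and 9.45 in control and 10.56, 10.51 and 10.53 in shNsd2 libraries, a 2.18-fold difference on a linear scale (SE 0.0417, adjusted p = 7.24e-07 from limma). Ptgs2, which encodes the inducible cyclooxygenase, was at 11.96, 11.99 and 12.02 in control and at 12.93, 12.86 and 13.16 in shNsd2 libraries. Groups that did not overlap were a condition for the choice of these 15 genes and of the 15 falls. The next ranks held Prl2c2, a proliferin gene of a closely related family whose reads may be shared between its members, Coro2a, an actin-binding coronin, Pmm1, a phosphomannomutase, and Marcksl1, an actin regulator. Below them came Blcap, the histone variant gene H2afj, the cytosolic chaperone gene Hsph1, the synaptotagmin gene Syt7, the organic anion and prostaglandin exporter gene Abcc4, the stress transcription factor gene Atf5, Ankrd13b, the RNA-binding protein gene Taf15 and the mitochondrial iron-sulphur protein gene Cisd3, at log2 fold changes between 0.70 and 0.57. Hsph1 was at 10.79, 10.84 and 10.77 in control and at 11.47, 11.44 and 11.48 in shNsd2 libraries, and showed little spread within either group.

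The 15 largest falls in the same expression range began with Cp, the copper-dependent ferroxidase ceruloplasmin. Aldoc, whose fall is given below and is larger than that of Krt15, is not among them. Cp was at 11.61, 11.45 and 11.45 in control and at 10.05, 10.002 and 10.14 in shNsd2 libraries, which is 0.368 of the control level on a linear scale. Krt15, a keratin of basal epithelial cells, was at 12.53, 12.56 and 12.56 in control and at 11.42, 11.34 and 11.29 in shNsd2 libraries. Il33, an alarmin cytokine, was at 11.20, 11.17 and 11.10 in control and at 9.94, 9.95 and 10.04 in shNsd2 libraries. The other falls included Serinc5 (log2 fold change -1.17), a membrane protein, Ctla2a (-1.16), a cysteine protease inhibitor, Lpl (-1.12), the lipoprotein lipase, and Sgms2 (-1.06), a sphingomyelin synthase. F13a1, the transglutaminase subunit of clotting factor XIII, had a log2 fold change of -0.995, and the matrix glycoprotein gene Tnc one of -0.95. Samd5 had -0.95 as well, and Ube2v1, a ubiquitin-conjugating enzyme variant, -0.93. The 4 genes that complete the set, Lss, Idi1, Cyp51 and Mvd, all encode enzymes of sterol synthesis.

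**Figure D1:**
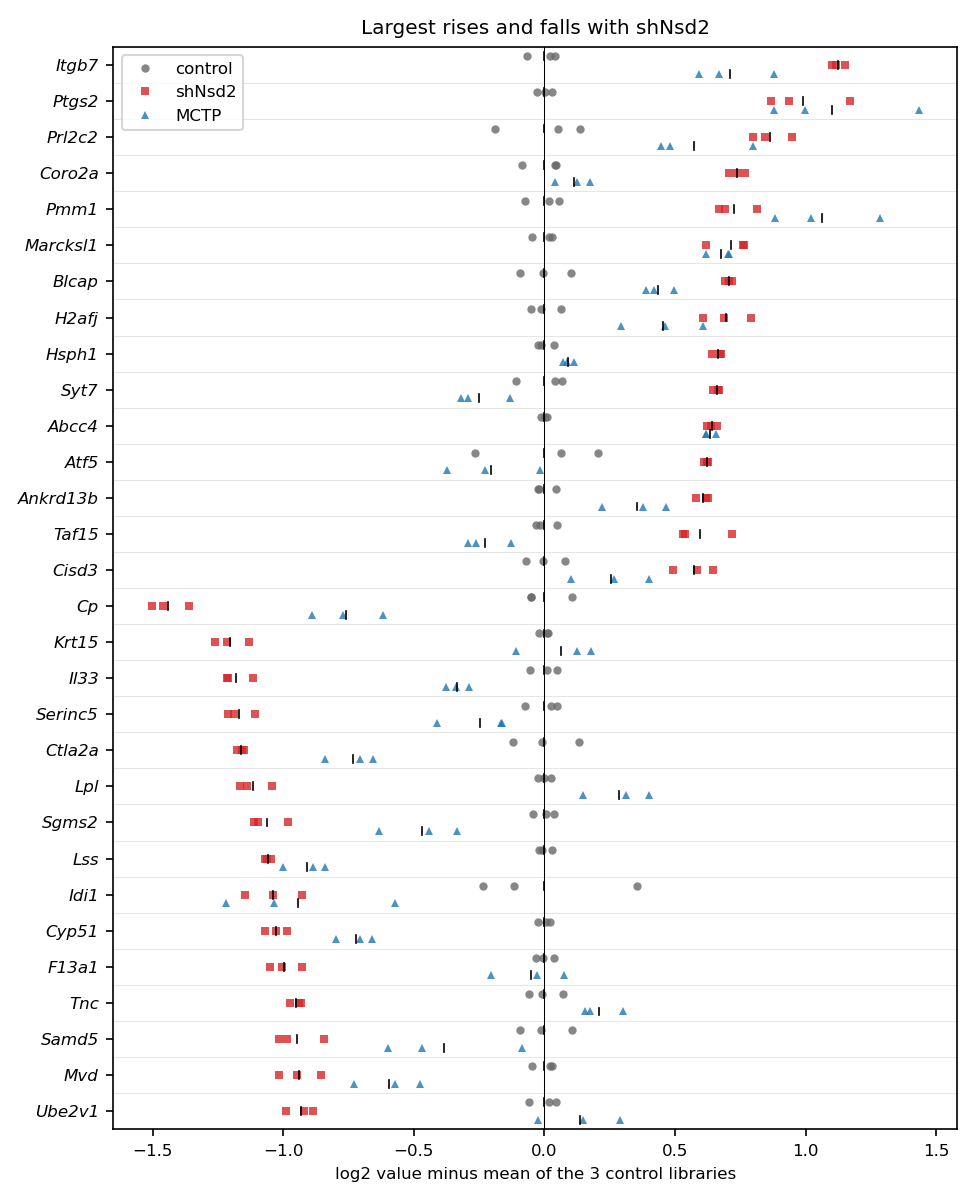
The 15 largest rises and the 15 largest falls with shNsd2 among called genes expressed above the median, each point 1 library, plotted as its log2 value minus the mean of the 3 control libraries, with control, shNsd2 and MCTP libraries marked apart and a short bar at each group mean. The largest rise is that of Itgb7 at 1.12 and the largest fall that of Cp at -1.44.

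Genes of cholesterol and fatty acid synthesis were lower with shNsd2 almost throughout. Of 35 measured members, 32 fell, none (0) rose and 3 did not pass the test in limma, with a median log2 fold change of -0.60. At an unadjusted p under 0.05 none (0) was higher either. The mean deviation of the list from its control mean was -0.561, -0.593 and -0.595 in the shNsd2 libraries, against 0.007, -0.005 and -0.003 in the control libraries, so the 3 shNsd2 libraries lay close together. Sterols are built from acetyl-CoA through mevalonate, isoprenoid units, squalene and lanosterol, and the transcription factor encoded by Srebf2 activates most genes of this route when sterols are scarce.

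Within the route, Mvd, which forms the isoprenoid building block from mevalonate diphosphate, was at 10.50, 10.57 and 10.56 in control and at 9.69, 9.59 and 9.53 in shNsd2 libraries. Idi1, which isomerises that building block, was at 11.96, 11.49 and 11.37 in control and at 10.57, 10.46 and 10.68 in shNsd2 libraries. Control replicate 1 was the highest library for Idi1 (SE 0.131, adjusted p = 3.07e-04 from limma). Lss, which closes the rings of lanosterol, was at 12.32, 12.32 and 12.36 in control and at 11.29, 11.27 and 11.27 in shNsd2 libraries. Cyp51, which removes a methyl group from lanosterol, was at 12.67, 12.62 and 12.65 in control and at 11.62, 11.58 and 11.66 in shNsd2 libraries. For Lss and Cyp51 the shNsd2 level was 0.480 and 0.490 of the control level on a linear scale. Among called genes of the fatty acid branch, log2 fold changes ran from -0.76 for the desaturase gene Scd1 and -0.57 for the elongase gene Elovl6 to -0.24 for Acaca, the carboxylase of the committed step, and -0.20 for both Fasn, the fatty acid synthase, and the desaturase gene Fads1. The regulator gene Srebf2 had a log2 fold change of -0.32, whereas Srebf1, its relative tied to fatty acid synthesis, the sterol isomerase gene Ebp and the elongase gene Elovl1 were not past the threshold. Srebf1 passed only when control replicate 1 was left out, at -0.11, or after each library was corrected for transcript GC content, at -0.15.

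**Figure D2:**
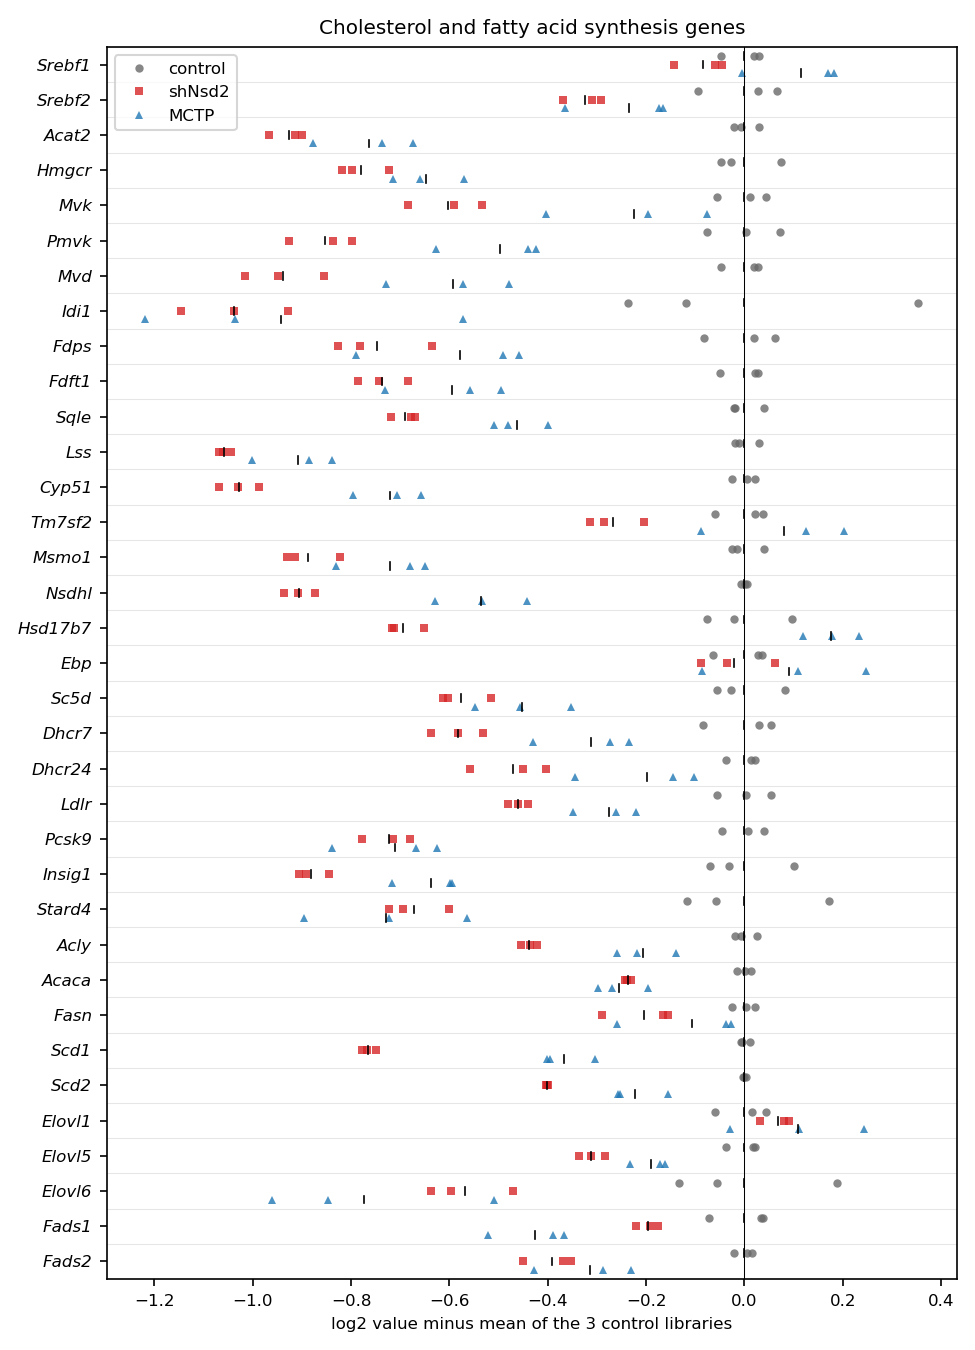
Genes of cholesterol and fatty acid synthesis, each point 1 library, plotted as its log2 value minus the mean of the 3 control libraries for the control, shNsd2 and MCTP groups, with a short bar at each group mean. Of the 35 genes, 32 were called lower with shNsd2 and none higher.

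The promoters of the 4 sterol genes with the largest falls are shown because these genes moved together. Each line gives the 150 bases before the annotated start, 5′ to 3′ on the strand of the gene, from RefSeq on GRCm38.p6, for Lss (chr10:76531455-76531604, + strand), Idi1 (chr13:8885456-8885605, + strand), Cyp51 (chr5:4104698-4104847, - strand) and Mvd (chr8:122443423-122443572, - strand). Capitals mark CCAAT, the box bound by factor NF-Y, and GGGCGG, the box bound by Sp1, searched on both strands, so that ATTGG and CCGCCC are the same motifs on the other strand.
Lss: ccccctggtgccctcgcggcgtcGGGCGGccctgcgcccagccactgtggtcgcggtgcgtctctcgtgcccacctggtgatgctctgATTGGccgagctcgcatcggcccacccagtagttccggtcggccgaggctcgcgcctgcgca
Idi1: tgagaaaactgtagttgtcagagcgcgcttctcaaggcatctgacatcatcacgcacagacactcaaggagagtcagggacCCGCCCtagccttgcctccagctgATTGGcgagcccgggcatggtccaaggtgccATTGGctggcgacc
Cyp51: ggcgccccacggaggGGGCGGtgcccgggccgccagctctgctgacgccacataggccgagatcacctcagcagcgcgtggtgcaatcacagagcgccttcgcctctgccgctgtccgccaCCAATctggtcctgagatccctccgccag
Mvd: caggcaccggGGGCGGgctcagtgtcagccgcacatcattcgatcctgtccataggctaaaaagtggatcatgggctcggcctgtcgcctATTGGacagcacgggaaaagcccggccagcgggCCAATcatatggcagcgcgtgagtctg
All 4 windows hold a GGGCGG motif and at least 1 CCAAT motif, with 2 CCAAT motifs each for Idi1 and Mvd. Some windows of other genes on the list lack one or the other. Those of Acat2 and Insig1 hold no CCAAT and that of Pmvk no GGGCGG, and of the 24 members with a window 16 hold CCAAT and 16 hold GGGCGG, which covers too few of the 35 for a statement on the list. Over all 27025 promoter windows of this length, 25.3% hold CCAAT and 29.0% hold GGGCGG. The sterol regulatory element, searched only as TCACNCCAC, was found in none (0) of the 4 windows and in 0.622% of all windows. At so low a share, absence from 4 windows cannot show that these promoters lack the element. Variants of its sequence were not searched. Such matches describe the letters of a window and not the binding of a factor.

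Nucleolar genes of ribosome biogenesis were higher with shNsd2. Of 39 measured members, 34 rose, none (0) fell and 5 did not pass the test in limma, with a median log2 fold change of 0.26 and none (0) lower at an unadjusted p under 0.05. Nop2, a ribosomal RNA methyltransferase, was at 11.96, 12.12 and 12.05 in control and at 12.55, 12.54 and 12.49 in shNsd2 libraries. Nop56, a core protein of the box C/D particles that guide RNA methylation, was at 12.54 in each of the control libraries and at 12.96, 13.01 and 12.97 in shNsd2 libraries. Both genes were separated without overlap, by 1.40-fold and 1.35-fold on a linear scale. Polr1b, a subunit of RNA polymerase I, rose by 0.44, and Bop1, which acts in maturation of the large ribosomal subunit, rose by 0.43. The helicase genes Ddx10 and Ddx18 were among those not past the threshold. In the Myc network, whose best known outputs include ribosome production, 4 of 11 members rose, or 1 without shNsd2 replicate 2, and 2 fell. Mxi1, a Myc antagonist, changed by -0.36, and Mlx, another member of the network, by -0.27. The Myc log2 fold change was 0.19, and the gene was no longer called without shNsd2 replicate 2 (0.18) or shNsd2 replicate 3 (0.17). It was 0.12 without control replicate 1, still past the threshold.

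Of 46 genes of DNA replication and nucleotide synthesis, 24 rose and 1 fell (0 without control replicate 2 or with all 9 libraries in 1 limma fit), with a median of 0.11. Fen1, the nuclease that trims Okazaki fragments, was at 10.95, 10.90 and 10.79 in control and at 11.30, 11.30 and 11.20 in shNsd2 libraries (log2 fold change 0.39, adjusted p = 3.55e-04 from limma). The origin recognition gene Orc2, the polymerase alpha subunit gene Pola2 and the helicase subunit gene Mcm5 rose by 0.36, 0.36 and 0.34. Of 56 genes of mitosis, 18 rose and 5 fell, among them the kinase gene Aurka by 0.31 and the cyclin genes Ccnf by 0.31 and Ccna2 by -0.24, while the proliferation marker Mki67 was not past the threshold. The mean deviation of the mitotic list was 0.088, 0.003 and -0.091 in the control libraries and 0.064, 0.030 and 0.091 in the shNsd2 libraries, so the list means of the groups overlapped. Its median was 0.062, or 0.128 without control replicate 1, 0.014 without control replicate 3 and 0.040 without shNsd2 replicate 3. The 5 falls of mitotic genes became 2 without control replicate 2 or shNsd2 replicate 2, and 3 without control replicate 1 or shNsd2 replicate 1. The rises became 28 after the GC correction. Among 24 genes of the G1 phase, 7 rose and 5 fell. Ccne1, the cyclin that drives entry into S phase, was at 9.26, 9.27 and 9.25 in control and at 9.71, 9.69 and 9.62 in shNsd2 libraries. The kinase inhibitor gene Cdkn1b moved the other way, from 11.88, 11.74 and 11.68 to 11.28, 11.30 and 11.38. In neither gene did the groups overlap.

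Genes of the extracellular matrix were mostly lower. Of 41 matrix proteins and assembly enzymes, 29 fell and 4 rose, with a median of -0.26. The rises numbered 2 without control replicate 2, shNsd2 replicate 1 or shNsd2 replicate 2. Tnc was at 12.45, 12.40 and 12.53 in control and at 11.52, 11.52 and 11.48 in shNsd2 libraries, and Thbs1, the matricellular protein thrombospondin, was at 15.45, 15.26 and 15.31 in control and at 14.46, 14.47 and 14.43 in shNsd2 libraries. Thbs1 is among the most abundant transcripts named here. Thbs2, a relative of Thbs1, changed by -0.90 and Loxl3, a collagen cross-linking oxidase, by -0.77. The exception in size among the rises was Fbln1, a basement membrane fibulin, with 0.55 at a low level of expression.

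Metalloproteinases, their inhibitors and the plasminogen system showed 17 falls and 4 rises among 25 members, with a median of -0.18. The falls were led by the aggrecanase gene Adamts1, which was at 9.25, 9.18 and 9.24 in control and at 8.25, 8.28 and 8.37 in shNsd2 libraries. The protease inhibitor gene Serpine2 (-0.75), the metalloproteinase inhibitor gene Timp3 (-0.64) and the sheddase gene Adam10 (-0.62) followed, so both proteases and inhibitors are among them. Plaur, the urokinase receptor, rose by 0.32 and the membrane-type metalloproteinase gene Mmp15 by 0.39. Of 14 integrin subunits, 8 fell and 2 rose. Itgb1, the common beta subunit of many matrix receptors, was at 14.996, 14.93 and 14.88 in control and at 14.33, 14.30 and 14.42 in shNsd2 libraries, or 0.666 of the control level on a linear scale. Itgav, Itgb2 and Itga7 changed by -0.53, -0.51 and -0.48, and Itga3 by 0.27 beside the rise of Itgb7.

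Of 16 transcription factors and marker genes of the epithelial-mesenchymal transition, 10 fell and 1 rose, with a median of -0.16. The rise, that of Twist2, was not called (0) without shNsd2 replicate 1 or 2 or with all 9 libraries in 1 fit. Fn1, the matrix protein fibronectin, was at 15.62, 15.63 and 15.72 in control and at 15.23, 15.27 and 15.22 in shNsd2 libraries. The repressors of epithelial genes Zeb2 and Zeb1 changed by -0.37 and -0.28, and the actin-binding protein gene Cald1 by -0.34. Snai1 and Snai2, factors of the same programme, were not past the threshold, at -0.11 and 0.14. Snai1 passed without control replicate 1, at -0.14, and both passed after the GC correction, at -0.19 and 0.20. Snai2 also passed after quantile normalization, at 0.19, and median centring, at 0.16. TGF-beta signalling had 12 falls and 1 rise among 25 genes, and a median of -0.10, or -0.067 after quantile normalization. The rise was not called (0) without control replicate 2, shNsd2 replicate 1 or shNsd2 replicate 2, with all 9 libraries in the fit or after quantile normalization, and there were 2 without shNsd2 replicate 3. Inhba, the activin A subunit, was at 10.36, 10.30 and 10.22 in control and at 9.47, 9.44 and 9.69 in shNsd2 libraries. The co-receptor gene Tgfbr3 changed by -0.65 and the ligand gene Tgfb1 by -0.40, whereas the signal transducers Smad2, Smad3 and Smad4 did not pass the test. Among 19 genes of Wnt5a signalling, 7 fell and 4 rose, with the ligand gene Wnt5a at -0.36, the receptor genes Fzd4 and Fzd5 at -0.41 and -0.40, and the adaptor gene Dvl3 at 0.37.

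The study names 11 genes as examples of its mouse metastasis signature, 10 from its rising side and Irf7, an interferon regulatory factor, from its falling side. With shNsd2, 8 of the 10 fell and 1 rose, and Irf7 fell too, by 0.12 on the log2 scale. The Irf7 log2 fold change was not called without shNsd2 replicate 2 (-0.10) or with all 9 libraries in the fit (adjusted p = 0.127 from limma). Of the 11 genes, 7 fell and none (0) rose in either setting, with 1 higher at an unadjusted p under 0.05. That list was chosen by the study from tumours of the same mouse model, so it is not independent evidence of a direction. Hmga2, an architectural chromatin protein of embryonic and cancer cells, was at 13.82, 13.81 and 13.71 in control and at 13.39, 13.39 and 13.51 in shNsd2 libraries. Col4a1, a basement membrane collagen, changed by -0.26 and Mmp14, a membrane-type metalloproteinase, by -0.14. The Vim log2 fold change, for an intermediate filament protein, was -0.16 and near the threshold. It was called without control replicate 1 (-0.19) but not without control replicate 2 (-0.13) or 3 (-0.15) or without shNsd2 replicate 1 (-0.17), 2 (-0.18) or 3 (-0.12), nor after median centring (-0.14) or the GC correction (-0.12), nor with all 9 libraries in the fit (adjusted p = 0.123 from limma). The Twist2 log2 fold change, the single rise at 0.17, was not called without shNsd2 replicate 1 (0.13) or 2 (0.17), nor with all 9 libraries in the fit (adjusted p = 0.0721 from limma). Etv4, a transcription factor downstream of Ras signalling, was not past the threshold.

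Keratins and junction genes divided evenly, with 9 of 23 higher and 9 lower, and 5 higher without shNsd2 replicate 1. Dsp, which links desmosomes to keratin filaments, was at 8.23, 8.28 and 8.22 in control and at 9.60, 9.54 and 9.57 in shNsd2 libraries, a 2.51-fold difference on a linear scale (SE 0.0414, adjusted p = 5.65e-07 from limma). The basal keratin Krt14 was at 8.78, 8.98 and 8.95 in control and at 9.76, 9.68 and 9.63 in shNsd2 libraries, so that it rose while Krt15, another basal keratin, fell. Krt6a, a keratin of activated epithelium, rose by 0.53, whereas the tight junction gene Cldn4 and the simple-epithelial keratin Krt19 changed by -0.39 and -0.34.

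**Figure D3:**
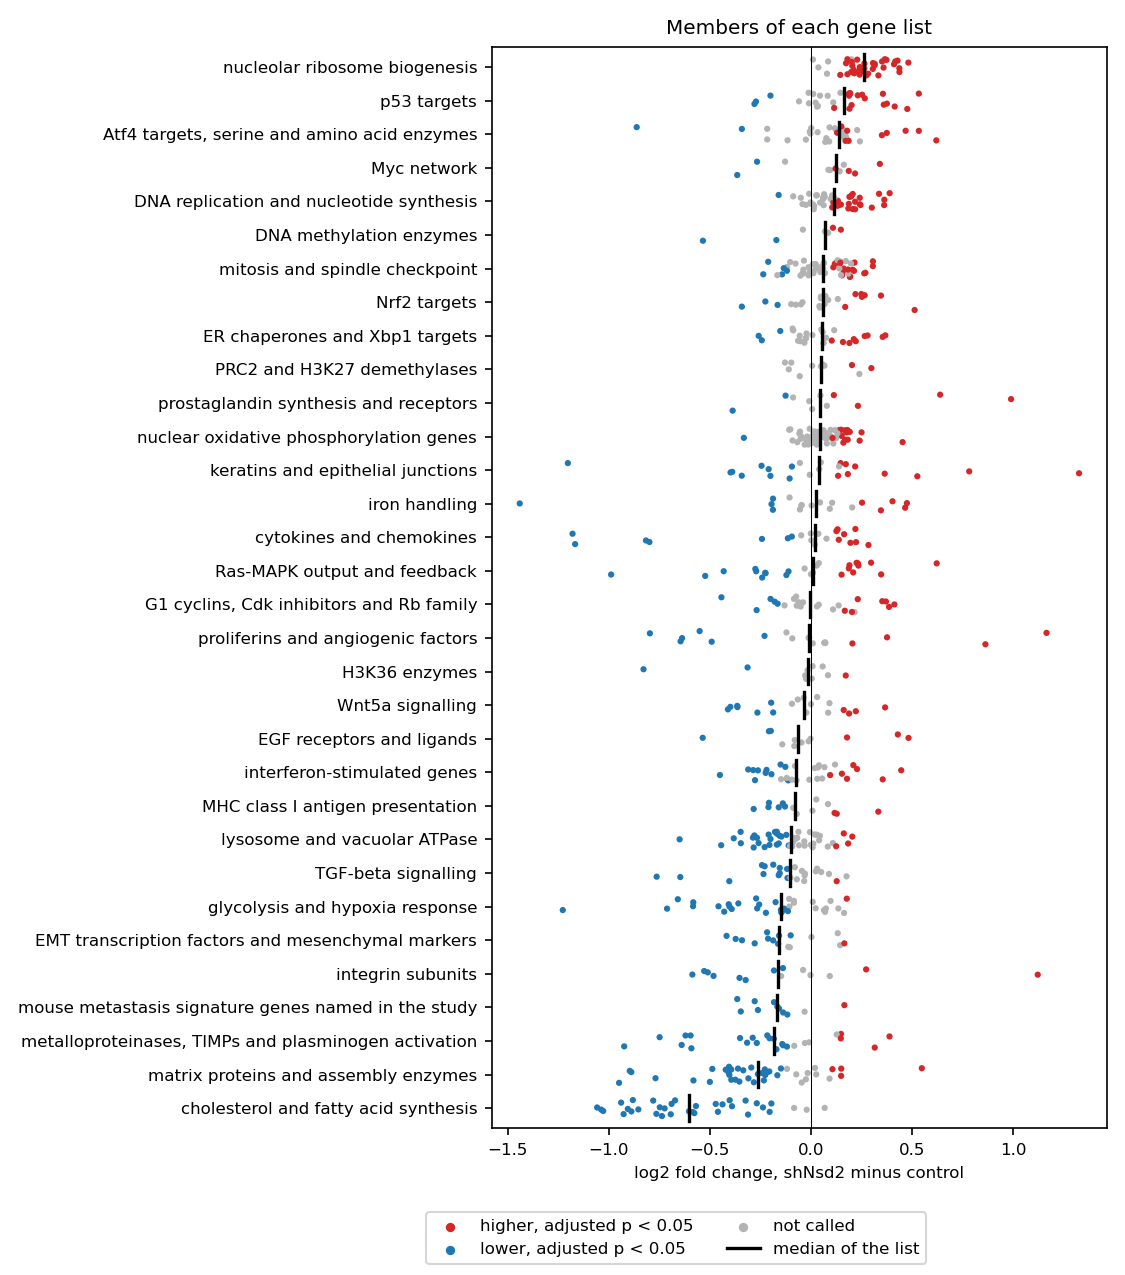
Log2 fold changes of the measured members of the gene lists reported with shNsd2, each point 1 gene, coloured by its call, with a black bar at the median of the list. The medians run from -0.60 for cholesterol and fatty acid synthesis to 0.26 for nucleolar ribosome biogenesis.

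Genes of glycolysis and the hypoxia response had 21 falls and 1 rise (2 without shNsd2 replicate 3) among 34 members, with a median of -0.15. Aldoc, an aldolase isoform, was at 10.23, 10.31 and 10.34 in control and at 9.18, 9.01 and 9.01 in shNsd2 libraries, or 0.427 of the control level on a linear scale. The oxidoreductase gene Ero1l, the mitophagy receptor gene Bnip3 and the phosphofructokinase gene Pfkp changed by -0.71, -0.66 and -0.58. The abundant late enzymes Pkm and Ldha were not past the threshold. Nuclear genes of oxidative phosphorylation were mostly not called, with 15 of 64 higher and 1 lower. The rises numbered 7 without shNsd2 replicate 1 or 2 and 23 without shNsd2 replicate 3, and the falls 2 without control replicate 1 or 3. The rises were led by Uqcrq (0.45), Cyc1 (0.25) and Cox5a (0.24), which encode parts of complexes III and IV.

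Of 48 lysosomal and vacuolar ATPase genes, 23 fell, or 15 without shNsd2 replicate 2, and 4 rose, with a median of -0.098. With all 9 libraries in 1 limma fit, 14 fell and none (0) rose, with 4 higher at an unadjusted p under 0.05. The hydrolase gene Idua and the proton pump gene Atp6v0a1 changed by -0.44 and -0.35. Iron handling genes showed 5 rises and 4 falls among 18. Beside the fall of Cp, the ferrous iron transporter gene Slc11a2 rose from 9.70, 9.70 and 9.73 to 10.20, 10.20 and 10.15, and the ferritin heavy chain gene Fth1 and the haem oxygenase gene Hmox1 rose by 0.40 and 0.35.

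Of 30 p53 target genes, 16 rose and 3 fell, with a median of 0.17, although the death gene Bbc3 was not past the threshold. Sesn2, a stress-induced regulator of mTORC1, was at 11.05, 11.18 and 11.32 in control and at 11.72, 11.73 and 11.70 in shNsd2 libraries, and the kinase gene Plk2 rose by 0.48. Of 34 Atf4 targets and amino acid enzymes, 10 rose and 2 fell, with a median of 0.14. Control replicate 1 stood apart in this list, with a mean deviation of -0.164 from the control mean against 0.043 and 0.121 in the other control libraries, and the shNsd2 libraries were at 0.096, 0.083 and 0.124. The list means of the groups therefore overlapped, and leaving that library out lowered the median to 0.042, with 8 members higher and 5 lower. Without control replicate 3, 16 were higher. Atf5 was at 11.62, 11.95 and 12.10 in control and at 12.52, 12.50 and 12.52 in shNsd2 libraries. Vldlr, a lipoprotein receptor, moved the other way, from 11.05, 11.16 and 11.28 to 10.20, 10.25 and 10.46. Among 22 Nrf2 targets, 7 rose and 3 fell (5 without control replicate 1), with Osgin1, an oxidative stress response gene, at 0.51 and Nfe2l2, which encodes Nrf2 itself, at -0.23. Among 28 chaperones and Xbp1 targets of the endoplasmic reticulum, 9 rose and 3 fell, including the folding factor gene Creld2 by 0.37 and the ubiquitin ligase gene Syvn1 by 0.36.

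Secreted signals changed in both directions. Of 21 cytokines and chemokines, 8 rose, or 5 without shNsd2 replicate 1 and 3 with a stricter filter on low values (a limit of 7.48), and 7 fell. The falls were the larger. The neutrophil chemokine gene Cxcl15 was at 9.20, 8.97 and 9.13 in control and at 7.96, 7.90 and 7.93 in shNsd2 libraries. Spp1, the matrix cytokine osteopontin, was at 15.22, 15.03 and 14.97 in control and at 14.23, 14.18 and 14.37 in shNsd2 libraries, and Il1rn, the interleukin-1 receptor antagonist, changed by -0.80. The largest rise of the list was that of Cxcl10, by 0.28 at a level near the limit of measurement. Of 18 proliferins and angiogenic factors, 4 rose and 6 fell. Prl2c3 was at 6.66, 6.59 and 6.56 in control and at 7.80, 7.74 and 7.77 in shNsd2 libraries, with the same uncertainty about shared reads as for Prl2c2. Angpt1, a ligand that stabilises vessels, changed by -0.80, the growth factor genes Ccn2 and Fgf2 by -0.64 each, and the growth factor gene Pdgfb by 0.38. Vegfa was not past the threshold except without control replicate 1 (-0.16) or shNsd2 replicate 3 (-0.17).

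Among 11 prostaglandin genes, 4 rose and 2 fell, or 1 without control replicate 1 or 3 or shNsd2 replicate 1 or 2. The inducible cyclooxygenase gene Ptgs2 and the exporter gene Abcc4 rose, the latter from 10.89, 10.91 and 10.92 to 11.52, 11.54 and 11.56, while the uptake carrier gene Slco2a1 changed by -0.39 and the terminal synthase gene Ptges was not past the threshold. Of 12 receptors, ligands and regulators of the EGF family, 3 rose and 3 fell (5 without control replicate 1). The ligand gene Tgfa rose by 0.48 and the receptor gene Erbb3 by 0.43, whereas the ligand gene Btc and the receptor gene Egfr changed by -0.54 and -0.21. Outputs and feedback genes of Ras-MAPK signalling were called higher and lower in equal number, 10 each of 25. Epha4, an ephrin receptor, rose from 9.35, 9.29 and 9.22 to 9.83, 9.91 and 9.99. Sprr1a, a cornified envelope protein, moved from 9.74, 9.85 and 9.91 to 8.87, 8.93 and 8.74, and the feedback inhibitor gene Spry1 changed by -0.52. Dusp6 and Ccnd1, which respond to this pathway in many cells, were not past the threshold.

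Of 32 interferon-stimulated genes, 12 fell and 7 rose, with a median of -0.075. The falls numbered 6 without shNsd2 replicate 2, the rises numbered 1 with the stricter filter on low values, and the median was -0.024 with no filter and -0.137 with the stricter one. Ddx58, the RNA sensor RIG-I, was at 9.88, 9.90 and 9.87 in control and at 9.40, 9.41 and 9.48 in shNsd2 libraries. Rsad2, the antiviral protein viperin, was at 5.61, 5.61 and 5.54 in control and at 5.95, 5.98 and 6.17 in shNsd2 libraries. The list thus held separated groups in either direction, as did the genes tested as a whole. Of 14 genes of MHC class I presentation, 6 fell and 3 rose. The falls numbered 3 without control replicate 2 or 3 or shNsd2 replicate 2 or 3, and the rises 1 without control replicate 2 or 3 or shNsd2 replicate 1 or 3. The list includes B2m, the light chain of the complex, at -0.21 and Tap1, the peptide transporter, at 0.33. H2 genes of this list belong to a family of near-identical copies, and their values are uncertain. The list means of the groups overlapped for the interferon-stimulated and MHC class I genes, and also for the PRC2, DNA methylation, keratin, Ras-MAPK, EGF family, iron handling and oxidative phosphorylation lists.

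The shNsd2 libraries were also compared directly with the 3 MCTP libraries, which asks where silencing and compound treatment differ without the control libraries that both comparisons with control share. Of 12217 genes tested, 43.2% passed the test in limma, 20.6% higher and 22.6% lower with shNsd2. The count of genes called depended on single libraries. For shNsd2 against MCTP, the number of genes called was 5276 with all 6, but 3361 without MCTP replicate 1, 7756 without MCTP replicate 2, and 3424 and 3414 without shNsd2 replicates 2 and 3. Genes called higher numbered 2513 with all 6, 1446 without MCTP replicate 1, 3858 without MCTP replicate 2, and 1560, 1484 and 1415 without shNsd2 replicates 1, 2 and 3. The median SD within the MCTP group was 0.0884, larger than in the other groups. When genes were divided into 10 groups by transcript GC content, the median deviation of the lowest group from its MCTP mean was 0.224 in MCTP replicate 2 and -0.147 in MCTP replicate 3. After each library was corrected for GC content, 6758 genes were called.

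Sterol and fatty acid genes were low in both treated groups, with a median against control of -0.60 for shNsd2 and -0.43 for MCTP. Such medians, here and for other lists, use the same 3 control libraries and are not independent. In the direct comparison, 16 of the 35 were lower and 1 was higher with shNsd2. The lower genes numbered 9 without MCTP replicate 1 and 26 without MCTP replicate 2. The higher genes numbered 0 without shNsd2 replicate 1 or 2 and 2 without MCTP replicate 2. Lss was at 11.50, 11.33 and 11.45 in the MCTP libraries, and its difference from shNsd2 was not past the threshold (adjusted p = 0.0542 from limma). Ribosome biogenesis genes parted the groups, with medians against control of 0.26 for shNsd2 and -0.062 for MCTP and 30 of 39 higher with shNsd2 in the direct test. For DNA replication, 36 of 46 genes were higher with shNsd2 than with MCTP and none (0) lower in limma, with 1 lower at an unadjusted p under 0.05. For mitosis 31 of 56 were higher and none (0) lower, also none (0) at an unadjusted p under 0.05. Without MCTP replicate 2, both lists had 2 lower members. The mitotic genes called higher numbered 15 without MCTP replicate 1, shNsd2 replicate 1 or shNsd2 replicate 3, and 17 without shNsd2 replicate 2. Of the 15 largest rises against control, those of Ptgs2, Marcksl1, Abcc4 and H2afj did not differ past the threshold between shNsd2 and MCTP. Ptgs2 changed against control by 0.99 with shNsd2 and by 1.10 with MCTP. Pmm1 was lower with shNsd2 than with MCTP, by -0.34, and the others of the 15 were higher.

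Among genes expressed above the median of these 6 libraries, the 10 largest differences each way were examined. Of the 10 toward shNsd2, 6 were those of genes on the list of Atf4 targets and amino acid enzymes. Of the 34 Atf4 targets and amino acid enzymes, 32 were higher and 1 lower with shNsd2 than with MCTP, and the medians against control were 0.14 and -0.60. Trib3, a pseudokinase induced by Atf4, was at 12.09, 12.04 and 12.11 in shNsd2 and at 10.19, 9.99 and 10.36 in MCTP libraries (difference 1.90, adjusted p = 2.07e-05 from limma). Gpt2, which makes alanine, differed by 1.73, Bcat1, the transaminase of branched-chain amino acids, by 1.44, the glycine transporter gene Slc6a9 by 1.36 and the mitochondrial folate enzyme gene Mthfd2 by 1.30. Further differences were those of Pck2 (1.22), Shmt2 (1.15), Asns (1.07) and Aldh18a1 (1.01), which encode mitochondrial phosphoenolpyruvate carboxykinase, serine hydroxymethyltransferase, asparagine synthetase and a proline synthesis enzyme. Rif1, a regulator of replication timing, differed by 1.20.

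On the other side of the same set, Sprr1a was at 8.87, 8.93 and 8.74 in shNsd2 and at 11.49, 11.24 and 11.70 in MCTP libraries, while control cells lay between them. Timp3 was at 9.92, 9.92 and 9.85 in shNsd2 and at 11.80, 11.91 and 11.84 in MCTP libraries, again on either side of control. The thioredoxin inhibitor gene Txnip, the lipase inhibitor gene Angptl4 and the matricellular gene Ccn2 differed by -1.58, -1.57 and -1.55. The serpin gene Serpinb9b, Thbs1, the actin-associated gene Synpo and Lpl had differences of -1.47, -1.46, -1.41 and -1.40. For all of these genes the shNsd2 mean was below and the MCTP mean above the control mean. Ephx1, an epoxide hydrolase, differed by -1.34 and was above control in both groups. Acta2, which lies below that median, differed by more than any of these, at 6.08 in shNsd2 and 8.96 in MCTP libraries on average. Lysosomal genes had 35 of 48 members lower and 1 higher (0 without any single shNsd2 library) with shNsd2 than with MCTP, p53 targets 19 of 30 lower and 3 higher, matrix genes 19 of 42 lower (12 without MCTP replicate 1) and 2 higher, and metalloproteinase and plasminogen genes 15 of 25 lower and 3 higher.

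Called genes were unevenly spread over gene length. When the genes tested were divided by length into 10 groups of equal size, 48.4% of the longest group were lower and 8.97% higher with shNsd2, with a median log2 fold change of -0.11. In the shortest group, 13.1% were lower and 28.2% higher. The median of the longest group was -0.097 after each library was corrected for transcript GC content. Division by GC content gave 13.9% lower and 40.2% higher in the group of highest GC, with a median of 0.079. In the group of lowest GC, 23.1% were lower and 7.38% higher, with a median of -0.031. The next groups held larger shares of falls, with 31.2% and 35.9% lower and medians of -0.062 and -0.054, so the share called lower did not peak at the lowest GC. Leaving out single libraries moved the median of the lowest group to 0.019 without control replicate 1, -0.072 without control replicate 3, -0.016 without shNsd2 replicate 1, -0.0013 without shNsd2 replicate 2 and -0.077 without shNsd2 replicate 3. Libraries of one group also differed by GC. The median deviation of the lowest GC group from its own group mean was 0.116 in control replicate 1 and -0.081 in control replicate 3, and 0.097 in shNsd2 replicate 3, all smaller in size than the values of MCTP replicates 2 and 3. The part of GC content in the results for single genes was not tested beyond this correction.

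**Figure D4:**
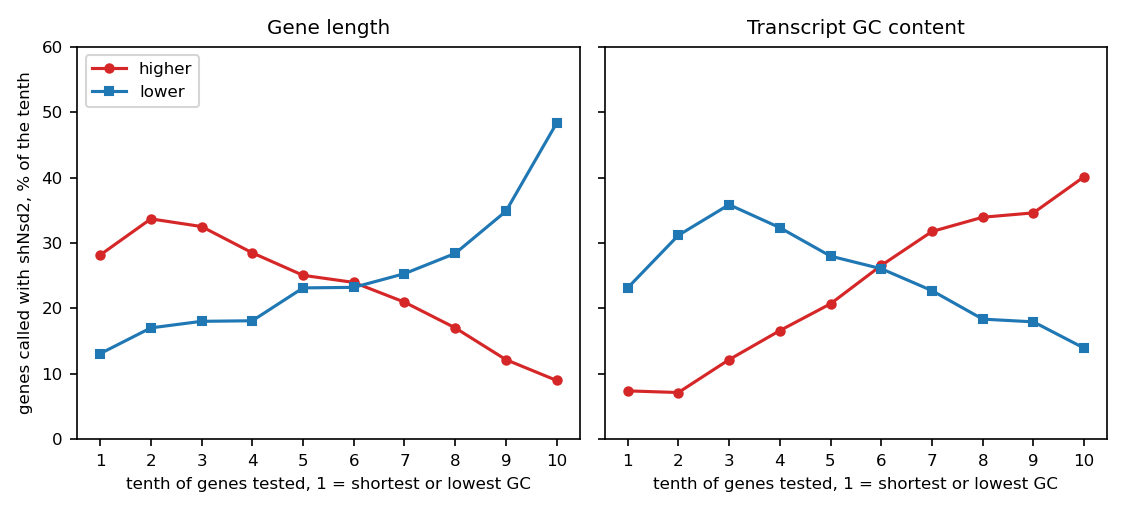
Share of genes called higher and lower with shNsd2, in percent, in 10 groups of equal size by gene length and by transcript GC content. The share called lower reaches 48.4% in the longest genes, and the share called higher reaches 40.2% at the highest GC content.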

How the data were processed

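RNA-seq of 9 NPK cell libraries was taken as one deposited matrix of log2 values, with library medians from 9.61 to 9.67. How the values were scaled between libraries is not given in the sources used here. The submitters' processing notes list bcl2fastq 1.8.4, TopHat, Cufflinks, DESeq, DESeq2 and the build mm9, with no roles. Of 12 columns of values, 3 matched no sample and were not used.

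Genes that exceeded 3.78 in 3 or more libraries were tested with limma 3.58.1 (lmFit, eBayes with a trend) in R 4.3.3, without a covariate, and p-values were adjusted by Benjamini-Hochberg over all genes tested. The procedure was tested on simulated data. Summaries and plots used Python 3.11.15, numpy 2.4.6, pandas 2.3.3 and matplotlib 3.10.9. GENCODE M21 (GRCm38) gave names and gene features for 12513 of 12842 genes (97.4%). A check of promoter CpG content was void, because only 9725 genes matched a RefSeq promoter.

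Alternatives were no filter or a stricter one, a fit of all 9 libraries, a replicate block, quantile normalization, median centring, no trend, a correction for transcript GC content (lowess, span 0.3), and leaving out each library. Those for gene features and for genes named against MCTP were added after seeing the data.

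The members and lists were chosen with earlier results of these data known. Genes named were the 15 largest rises and falls among called genes above the median level whose groups did not overlap, the H3K36 enzymes, the signature, NPK genotype and marker genes, and up to 4 called members of each list with the largest change in each direction. Against MCTP they were the 10 largest differences each way by the same rule. The comparison of the 15 largest rises with MCTP was added after their values were seen. Other members named as not past the threshold, Srebf2, Acaca, Fasn, Fads1, Scd1, Elovl6, and genes named for a missing motif were named after their values were seen. Some genes that this rule takes are not reported here.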

Additional observations from a re-analysis of the deposited data

How the results depend on the processing

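The number of genes called for shNsd2 against control stayed within 1.5 times of 5836 under every alternative, from 4319 with all 9 libraries in the fit to 6714 after the GC correction, and from 4332 to 6006 when a single library was left out. Nsd2 was called lower under each, with a log2 fold change from -0.86 to -0.77. For shNsd2 against MCTP, genes called ran from 3361 to 7756 and genes called higher from 1415 to 3858 with single libraries left out, and fewer libraries enter each such fit.

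Of 224 named genes past the threshold, 182 kept their call and direction under every alternative that tested them, and 42 lost the call. The stricter filter left 25 of the 224 untested, among them Irf7, Rsad2, Cxcl10, Fbln1, Fgf2, Idua, Itgb2 and Thbs2. Of the 198 tested under every alternative, 163 kept call and direction. The calls of 29 named genes were lost with all 9 libraries in the fit, and those of up to 26 when a single library was left out. Among the genes whose change against control is given, those that lost their call under an alternative that tested them were Vim, Twist2, Irf7 and Myc. Of 19 members named after their values were seen as not past the threshold, 4 passed under at least 1 alternative, 3 of them after the GC correction. The Kdm2a log2 fold change (0.08) and the Etv4 log2 fold change (-0.10) also passed after that correction. Directions reversed for genes that were not called. The Smyd2 log2 fold change was 0.00050 after median centring and the Setd2 log2 fold change -0.0060 after quantile normalization. After the GC correction, the Ash1l log2 fold change was 0.027, the Nsd3 log2 fold change 0.013, the Nsd1 log2 fold change 0.023 and the Kdm4b log2 fold change -0.062. With single libraries left out, the Ash1l log2 fold change ran from -0.081 to 0.046, the Nsd3 log2 fold change from -0.070 to 0.026, the Setd2 log2 fold change from -0.065 to 0.094, the Nsd1 log2 fold change from -0.073 to 0.037 and the Kdm4b log2 fold change from -0.021 to 0.042. The cause was not tested. The medians of 8 of 33 lists changed sign under some alternative, and no list median moved by more than 0.139. With all 9 libraries in the fit, the rises among oxidative phosphorylation genes numbered 4, those among iron handling genes 3 and those among prostaglandin, matrix and metalloproteinase genes 2 each. In that fit, the falls numbered 14 among lysosomal and 7 among interferon-stimulated genes. There were 2 falls among mitotic genes and 1 each among Nrf2 targets, Atf4 targets and prostaglandin genes. MHC class I genes had 3 falls and 1 rise in that fit. After the GC correction, 7 genes of the Myc network and 11 Nrf2 targets were higher, and 5 Nrf2 targets and 4 Atf4 targets lower.

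On average, libraries with the same replicate number did not deviate together, which cannot exclude that they were paired. Deviations of libraries with the same number had a mean correlation of -0.25 for shNsd2 and control and -0.36 for shNsd2 and MCTP. With the replicate block, 4515 genes were called for shNsd2 against control and 3794 for shNsd2 against MCTP. The Nsd2 log2 fold change stayed at -0.83, and the calls of 16 named genes were lost, as was the rise among TGF-beta genes. Vim and Twist2 were among the 16, with adjusted p of 0.113 for the Vim log2 fold change and 0.0679 for the Twist2 log2 fold change. Without read counts, the counting error of weakly expressed genes is unknown.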
